A study of Sus scrofa with 12 samples.

Results

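The annexins are a family of calcium-dependent proteins that bind phospholipid membranes. Their transcripts were measured in porcine cells under endothelial induction and in a porcine endothelial cell line. The family was taken as 8 listed genes, ANXA1, ANXA2, ANXA3, ANXA4, ANXA6, ANXA7, ANXA8 and ANXA11, looked up by their Ensembl pig gene symbols. Of these, 6 were found among the 19681 genes of the tables, 13998 of which carried a symbol. ANXA3 and ANXA8 were not matched to an identifier, and no value is given for them. A further 4 annexins, ANXA5, ANXA9, ANXA10 and ANXA13, were found in the same way and are described beside the listed genes.

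RNA sequencing was done on 12 bulk libraries, 3 biological replicates (A, B and C) in each of 4 groups. AOC is an established porcine endothelial cell line, cultured without induction. The other groups started from porcine induced pluripotent stem (iPS) cells, and were collected after 2 days (IEC2), 4 days (IEC4) and 12 days (IEC12) of induction. The first 2 days were a culture with CHIR99021, an inhibitor of the kinase GSK3 that activates Wnt signalling. BMP4, FGF2 and VEGF followed until day 4, and then endothelial growth medium with VEGF. IEC12 was not sorted, so each IEC library is an average over all cells of the dish. The labels call all 9 IEC libraries induced endothelial cells. No engineered change is named for any group. AOC is a separate cell line and not a primary endothelium, so origin and group cannot be told apart between AOC and the IEC libraries.

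The values are FPKM (fragments per kilobase of a transcript, divided by the size of the library), 1 value per gene and library, so that levels can be set side by side between genes. The number of reads is unknown. Each library's FPKM summed to between 335976 and 457194, and 8357 to 10467 genes reached an FPKM of at least 1. Replicates were correlated at 0.968 to 0.993 on the log2 scale, and none shared its values with another. IEC12 replicate A had the lowest estimate of relative depth, 0.667 against 0.895 to 1.23 in the other 11 libraries. That estimate is uncertain: of 3958 ratios of low values in this library, 547 lay at equal numbers of reads, but 350 lay at a ratio of 2 and 233 at 0.5. IEC4 replicate C stood apart from its replicates, with 6.09 times the mean of the others in CDH1 and 3.54 times in KRT7, both epithelial genes. The ratio was 11.8 in EPCAM, 2.03 in KRT8 and 2.00 in KRT18, also epithelial. It was not confined to epithelial genes, being 8.42 in DCN, a mesenchymal gene. Listed annexin differences that this library moves by over 1.5 times are given with and without it. Every listed annexin called in a comparison with IEC4 was also called without this library.

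The labelled cell type was checked with endothelial markers, 9 of 12 of which were found. Their summed FPKM was 263 to 384 in AOC. At day 2 it was 5.53 to 9.28, at day 4 it was 4.32 to 5.53, and at day 12 it was 0.693 to 2.55. In IEC12, 8 of the 9 stayed under an FPKM of 1 in every library, and in AOC 7 of 9 reached 1 in every library. CDH5, the cadherin of endothelial junctions, was listed at 0 in all 9 IEC libraries and at 103 to 137 in AOC. PECAM1 (CD31) did not exceed 0.105 in IEC12, against 91.7 or more in AOC. KDR, the VEGF receptor, was an exception at 2.42 to 3.99 in IEC2 against 1.31 to 1.46 in AOC, as was ENG at 1.58 to 3.58 in IEC2 and 2.46 to 3.83 in IEC4 against 0.361 to 1.23 in AOC. CDH5 and PECAM1 were thus at or near 0 in the libraries labelled induced endothelial cells, and these are named below by their day of induction. Of 8 epithelial markers listed, 7 were found. Their summed FPKM was 536 to 1496 in IEC4, 109 to 144 in IEC2, 41.8 to 86.8 in IEC12 and 3.08 to 5.11 in AOC. In the induced libraries KRT8 and CLDN6 made up most of it, with means of 494 and 343 in IEC4 and 15.6 and 105 in IEC2. CLDN7 went the other way, at no more than 0.0226 in IEC4 and 0.0265 to 0.0966 in IEC2. EPCAM was 0.166, 0.208 and 2.21 in IEC4 and 0 in IEC2. In a bulk library, fewer cells of a type and less RNA per cell cannot be told apart.

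Annexins share a core of repeats that binds negatively charged lipids when calcium rises, and differ in the N-terminal tail, which binds partner proteins. In endothelium, ANXA2 is known for holding plasminogen and its activator at the cell surface, together with its small partner S100A10. ANXA1 is a glucocorticoid-regulated, anti-inflammatory protein. ANXA5 binds the phosphatidylserine that dying cells expose, ANXA6 is a membrane scaffold for signalling enzymes and cholesterol transport, ANXA4 aggregates on membranes, and ANXA7 and ANXA11 bind calcium sensors such as sorcin and ALG-2.

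In the genome build Sscrofa11.1 (susScr11), ANXA2 lies on chromosome 1 from 111588721 to 111635064 and ANXA1 on the same chromosome from 226414200 to 226431963. ANXA4 lies on chromosome 3 from 72623311 to 72654591, and ANXA6 on chromosome 16 from 71857229 to 71913723. ANXA7 spans 76205238 to 76234646 of chromosome 14, where ANXA11 spans 81835205 to 81879565. ANXA5 lies on chromosome 8 from 102387833 to 102420868. These intervals are whole genes, with exons, introns and untranslated regions.

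AOC held far more annexin transcript than the induced cells. The 10 annexins found took 0.910 to 0.958% of a library's FPKM in AOC. The share was 0.355 to 0.421% at day 2, 0.326 to 0.362% at day 4 and 0.229 to 0.237% at day 12. The ranges did not overlap except those of IEC2 and IEC4. Within the family the makeup differed too. ANXA2 made up 42.8% ± 2.37 (SD, n = 3) of the annexin FPKM in AOC, against 9.85% ± 1.63 in IEC2, 14.5% ± 4.92 in IEC4 and 16.4% ± 1.2 in IEC12. ANXA1 was the most abundant annexin of all induced stages, with 52.2% ± 1.52 in IEC2, 37.7% ± 0.290 in IEC4 and 53.6% ± 5.16 in IEC12, against 23.8% ± 2.90 in AOC. ANXA6 held 7.02% ± 1.10 in IEC2 and 9.50% ± 2.28 in IEC4, but 1.85% ± 1.23 in IEC12 and 0.485% ± 0.172 in AOC.

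**Figure D1:**
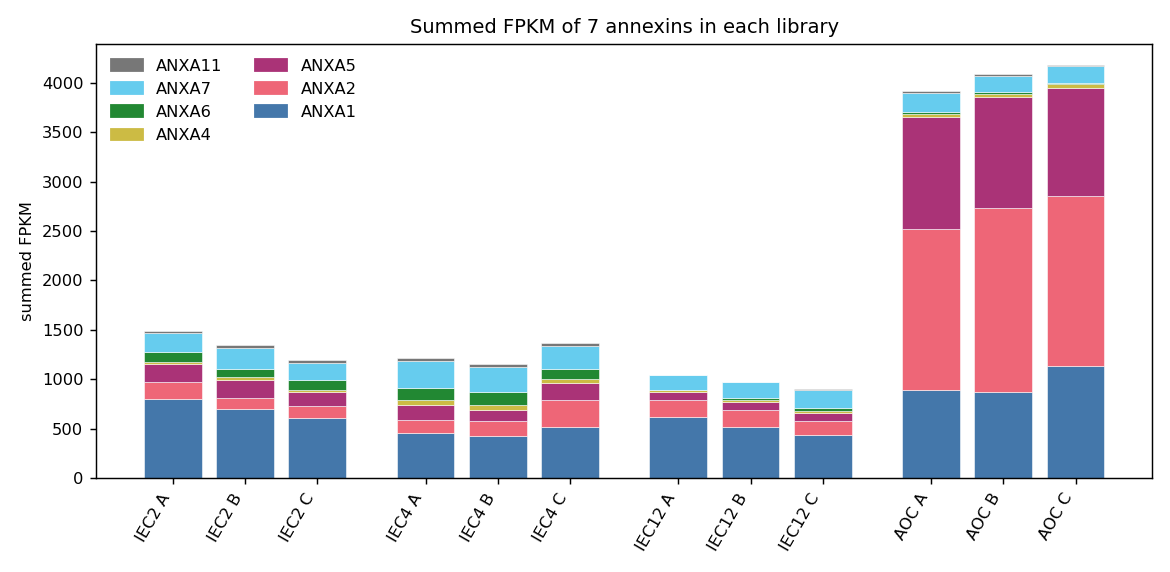
Summed FPKM (vertical axis, linear from 0) of 7 annexins in each of the 12 libraries (horizontal axis), each colour 1 gene. The AOC bars reach 3914 to 4184 FPKM and consist mainly of ANXA2, ANXA5 and ANXA1, while the IEC bars reach 905 to 1487 and ANXA1 is their widest block.

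ANXA2, the plasminogen-binding annexin, had an FPKM of 1627, 1860 and 1725 in replicates A, B and C of AOC. It was 169, 109 and 120 in IEC2, 132, 145 and 276 in IEC4, and 174, 171 and 137 in IEC12. Every AOC library was thus several times above every IEC library, and the 3 stages overlapped each other. IEC4 replicate C was the highest induced library, at 1.99 times the mean of the other IEC4 libraries. The mean of AOC was 10.8 times that of IEC12, 9.43 times that of IEC4 and 13.1 times that of IEC2. On log2(FPKM + 1), AOC was higher than IEC12 by 3.43 ± 0.249 (SE, adjusted p = 3.18e-07, limma). This scale understates folds, slightly at these levels and strongly where a group lies near or under an FPKM of 1. Between stages ANXA2 did not pass the test, with differences of 0.41 (95% interval -0.20 to 1.03) for IEC4 over IEC2, or 0.08 without IEC4 replicate C, and 0.29 (-0.32 to 0.90) for IEC12 over IEC2. For IEC12 against IEC4 the difference was -0.12, and it was 0.21 without IEC4 replicate C.

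ANXA1 was high in every library. Its FPKM was 897, 876 and 1131 in AOC, 801, 700 and 607 in IEC2, 460, 432 and 520 in IEC4, and 618, 520 and 440 in IEC12. All AOC libraries lay above all IEC libraries, and all IEC2 libraries above all IEC4 libraries, while IEC12 overlapped both neighbours. From IEC2 to IEC4, ANXA1 fell by 0.57 ± 0.158 on the log2 scale (adjusted p = 0.0183). This call did not hold when IEC4 replicate A (adjusted p = 0.0546), IEC4 replicate B (0.0745), IEC2 replicate A (0.0648) or IEC2 replicate B (0.0533) was left out. From IEC4 to IEC12 the difference was 0.15 (-0.20 to 0.51), and from IEC2 to IEC12 it was -0.42 (95% interval -0.78 to -0.07, adjusted p = 0.0544). The latter passed the test at equal FPKM totals (-0.71, adjusted p = 0.00194), without IEC12 replicate A (-0.54, adjusted p = 0.0188) and without IEC2 replicate C (-0.52, adjusted p = 0.0432). AOC exceeded IEC12 by 0.88 ± 0.155 (adjusted p = 0.000428), IEC4 by 1.03 ± 0.155 (adjusted p = 0.000103) and IEC2 by 0.46 ± 0.155 (adjusted p = 0.0212). The last of these was lost without AOC replicate C (adjusted p = 0.0959), IEC2 replicate B (0.0502) or IEC2 replicate C (0.0872), and at equal FPKM totals (adjusted p = 0.38).

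ANXA5, which is not among the listed genes, followed ANXA2 in AOC. Its FPKM was 1127, 1119 and 1097 in AOC, 182, 184 and 149 in IEC2, 148, 117 and 168 in IEC4, and 78.1, 77.5 and 83.1 in IEC12. It was lower in IEC12 than in every library of the other groups. The log2 difference of AOC over IEC12 was 3.79 ± 0.133 (adjusted p = 7.99e-10). For IEC12 the difference was -0.84 ± 0.152 against IEC4 (adjusted p = 0.00209) and -1.10 ± 0.152 against IEC2 (adjusted p = 0.000389), where neither difference of ANXA2 passed the test. Whether the stage differences of ANXA5 and ANXA2 are unequal was not tested.

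ANXA6, the largest annexin, fell late in the induction. Its FPKM was 98.2, 83.3 and 98.7 in IEC2 and 120, 134 and 96.9 in IEC4, but 6.38, 18.2 and 27.8 in IEC12. In AOC it was at a level near that of IEC12, at 23.0, 23.7 and 12.0. Every IEC2 and IEC4 library was thus above every IEC12 and AOC library. The replicates of IEC12 differed among themselves, replicate A being 0.277 of the mean of the others. The log2 difference of ANXA6 in IEC12 was -2.87 ± 0.4 against IEC4 (adjusted p = 0.000555) and -2.56 ± 0.4 against IEC2 (adjusted p = 0.000784). Without IEC12 replicate A these differences were -2.31 and -2.00. The difference of AOC was -2.57 ± 0.407 against IEC4 (adjusted p = 0.000155) and -2.25 ± 0.407 against IEC2 (adjusted p = 0.00043). The difference of AOC against IEC12 did not pass the test (0.31, 95% interval -0.58 to 1.2), and the difference was -0.25 without IEC12 replicate A.

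ANXA11, a partner of S100A6 and ALG-2 that is also known to link RNA granules to lysosomes, had the same late drop at a lower level. Its FPKM was 15.7, 30.9 and 27.3 in IEC2, 33.3, 35.7 and 30.8 in IEC4, and 6.82, 8.19 and 11.8 in IEC12. In AOC it was 18.0, 14.9 and 11.7. IEC12 lay wholly below IEC2 and IEC4, and overlapped AOC. The log2 difference of IEC12 against IEC4 was -1.81 ± 0.258 (adjusted p = 0.000611), and against IEC2 it was -1.34 ± 0.258 (adjusted p = 0.0025). AOC was lower than IEC4, with a difference of -1.13 ± 0.253 (adjusted p = 0.00185). AOC also passed the test against IEC12 (0.69 ± 0.253, adjusted p = 0.035) and against IEC2 (-0.66 ± 0.253, adjusted p = 0.0381). Both calls were narrow. The first was lost without AOC replicate A (adjusted p = 0.129), AOC replicate B (0.0796), IEC12 replicate A (0.109) or IEC12 replicate B (0.0909), and at equal FPKM totals (0.0794). The second was lost without AOC replicate B (adjusted p = 0.0752), AOC replicate C (0.141), IEC2 replicate B (0.154) or IEC2 replicate C (0.12), and under median-of-ratios scaling (-0.42, adjusted p = 0.0865).

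ANXA4, which aggregates on membranes and is best known from epithelia, peaked on day 4. Its FPKM was 26.4, 27.1 and 17.4 in IEC2, 49.6, 44.1 and 44.9 in IEC4, and 20.4, 20.2 and 24.2 in IEC12. In AOC it was 33.3, 32.9 and 32.2, between IEC4 and the other stages in every library. ANXA4 rose from IEC2 to IEC4 by 0.96 ± 0.177 on the log2 scale (adjusted p = 0.00252) and fell from IEC4 to IEC12 by 1.07 ± 0.177 (adjusted p = 0.00135). IEC12 and IEC2 did not pass the test (-0.10, 95% interval -0.50 to 0.29). AOC was above IEC12 by 0.59 ± 0.157 (adjusted p = 0.00688) and above IEC2 by 0.48 ± 0.157 (adjusted p = 0.0176), the latter being 0.29 (adjusted p = 0.0655) without IEC2 replicate C and 0.16 (adjusted p = 0.431) at equal FPKM totals. AOC was below IEC4, with a difference of -0.48 ± 0.157 (adjusted p = 0.0172). This last call was lost without IEC4 replicate A (adjusted p = 0.0569), and the value was 0.03 (adjusted p = 0.879) when libraries were scaled by the median of their ratios to a common reference (median-of-ratios scaling). The summed epithelial markers, mostly KRT8 and CLDN6, were also highest in IEC4 (536 to 1496 FPKM, against at most 144 elsewhere). Their part in the ANXA4 result was not tested.

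ANXA7 (synexin) was moderately high throughout, and the largest of its 6 differences was the smallest such value of the listed genes. Its FPKM was 194, 210 and 175 in IEC2, 273, 249 and 236 in IEC4, 145, 162 and 181 in IEC12, and 189, 160 and 175 in AOC. Only the IEC4 libraries stood above all others. ANXA7 fell from IEC4 to IEC12 by 0.63 ± 0.127 (adjusted p = 0.00352), and the difference of AOC against IEC4 was -0.53 ± 0.117 (adjusted p = 0.00176). Neither call held under median-of-ratios scaling (adjusted p = 0.0677 and 0.991). Its rise from IEC2 to IEC4 of 0.39 ± 0.127 (adjusted p = 0.0378) was lost under both scalings (adjusted p = 0.599 and 0.165), with a variance not tied to expression (0.071) and with the replicate letter as a block (0.0675). It was also lost without IEC4 replicate A (adjusted p = 0.118), IEC4 replicate B (0.093), IEC2 replicate A (0.0786), IEC2 replicate B (0.05) or IEC2 replicate C (0.117). ANXA7 in AOC did not pass the test against IEC2 (-0.14, 95% interval -0.40 to 0.12) or IEC12 (0.11, 95% interval -0.15 to 0.36). Both moved with the scale. The former was 0.11 under median-of-ratios scaling and -0.47 (adjusted p = 0.0139) at equal totals, and the latter 0.39 (adjusted p = 0.0366) under median-of-ratios scaling.

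**Figure D2:**
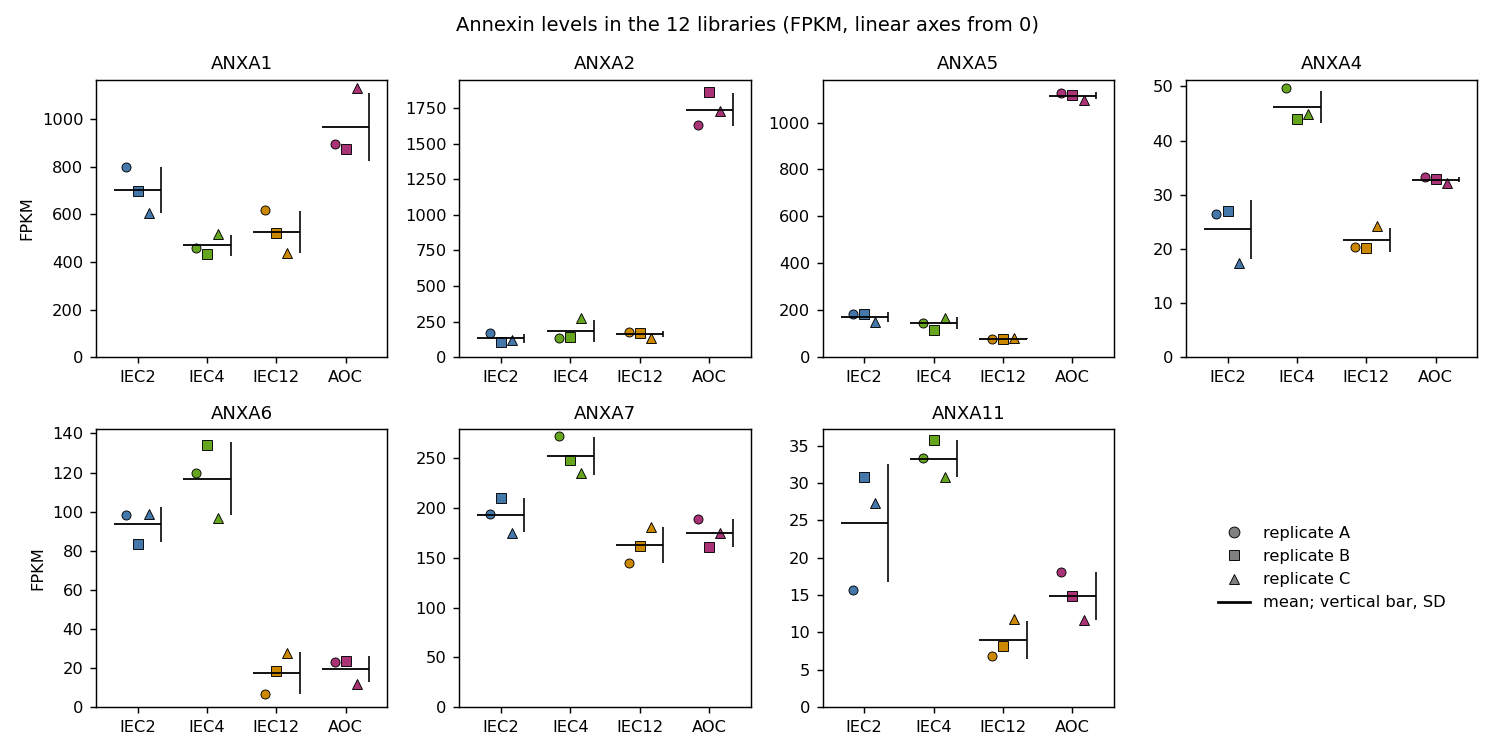
FPKM (vertical axes, linear from 0) of the 6 listed annexins found and of ANXA5, in the 3 libraries of each group (horizontal axes). Points are libraries, horizontal lines means and vertical bars SD. ANXA1, ANXA2 and ANXA5 are highest in the 3 AOC libraries, ANXA4 and ANXA7 in the 3 IEC4 libraries, and ANXA6 and ANXA11 are low in IEC12 and AOC.

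The other annexins were barely present. ANXA9 did not exceed 0.0428 FPKM in AOC or 0.0181 in IEC2, stood at 0.701, 0.757 and 1.97 in IEC4, and lay between 0.170 and 0.211 in IEC12. ANXA13 did not exceed 0.236 in any library. ANXA10 was listed at 0 in AOC, IEC2 and IEC4 and did not exceed 0.0207 in IEC12. These genes did not reach an FPKM of 1 in 3 libraries, and were not tested.

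Ordered by mean FPKM, the levels took 3 forms. ANXA2 and ANXA1 had AOC on top and differed less among the stages, ANXA2 in the order AOC, IEC4, IEC12, IEC2 and ANXA1 in the order AOC, IEC2, IEC12, IEC4. Neighbouring stages in these orders did not pass the test (adjusted p from 0.0544 to 0.736), with ANXA1 in IEC2 and IEC12 nearest to it. The place of IEC4 above IEC12 for ANXA2 rested on IEC4 replicate C, since the other IEC4 libraries averaged 138 FPKM against 161 in IEC12. ANXA4 and ANXA7 had IEC4 on top and IEC12 at the bottom. The lowest step did not pass the test, from IEC2 to IEC12 for ANXA4 (adjusted p = 0.667) or from AOC to IEC12 for ANXA7 (0.461). ANXA6 and ANXA11 both ran IEC4, IEC2, AOC, IEC12 by their means. The step between IEC2 and AOC passed the test for both, for ANXA11 narrowly, as given above. IEC4 and IEC2 showed no difference beyond the spread (adjusted p = 0.567 and 0.179). AOC above IEC12 passed narrowly for ANXA11. For ANXA6 it did not pass (adjusted p = 0.545), and the order of these groups turned without IEC12 replicate A.

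The counts of the 6 listed annexins, all of which passed the filter on low values, were read against those of all genes tested. Calls were made at a Benjamini-Hochberg adjusted p under 0.05 over 10542 genes between stages and 11053 genes against AOC. From IEC2 to IEC4, 2 annexins (ANXA4 and ANXA7) rose and 1 (ANXA1) fell, where 24.8% of all genes were higher and 12.5% lower. From IEC4 to IEC12, 4 fell (ANXA4, ANXA6, ANXA7 and ANXA11) and 0 rose, against 26.9% lower and 17.3% higher among all genes. Over the whole interval from IEC2 to IEC12, 2 fell (ANXA6 and ANXA11) and 0 rose, where 19.3% of genes were lower and 24.2% higher. The median log2 difference of the 6 genes in these comparisons was 0.40, -0.85 and -0.33, against 0.20, -0.15 and 0.03 for all genes tested.

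Against AOC, the same 6 genes divided by stage. AOC was higher than IEC12 in 4 (ANXA1, ANXA2, ANXA4 and ANXA11) and lower in 0, with 22.4% of all genes higher and 36.2% lower. AOC was higher than IEC4 in 2 (ANXA1 and ANXA2) and lower in 4 (ANXA4, ANXA6, ANXA7 and ANXA11), with 22.1% higher and 47.0% lower among all genes. AOC was higher than IEC2 in 3 (ANXA1, ANXA2 and ANXA4) and lower in 2 (ANXA6 and ANXA11), with 26.7% higher and 37.1% lower. These comparisons share the AOC libraries. The median log2 difference of the 6 genes was 0.64, -0.50 and 0.16 against IEC12, IEC4 and IEC2, where that of all genes was -0.21, -0.45 and -0.20.

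At stricter limits, p and adjusted p under 0.001 and a log2 difference above 3 in either direction, ANXA2 was the 1 listed annexin called against each stage by AOC. These limits took 4.41% of genes for AOC against IEC12, 5.17% against IEC4 and 5.47% against IEC2. Between stages 0 of 6 passed them, where 1.18% of genes did for IEC4 against IEC2, 0.939% for IEC12 against IEC4 and 1.22% for IEC12 against IEC2. ANXA5 passed them for AOC against IEC12 alone, its log2 difference being 2.96 against IEC4 and 2.70 against IEC2.

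**Figure D3:**
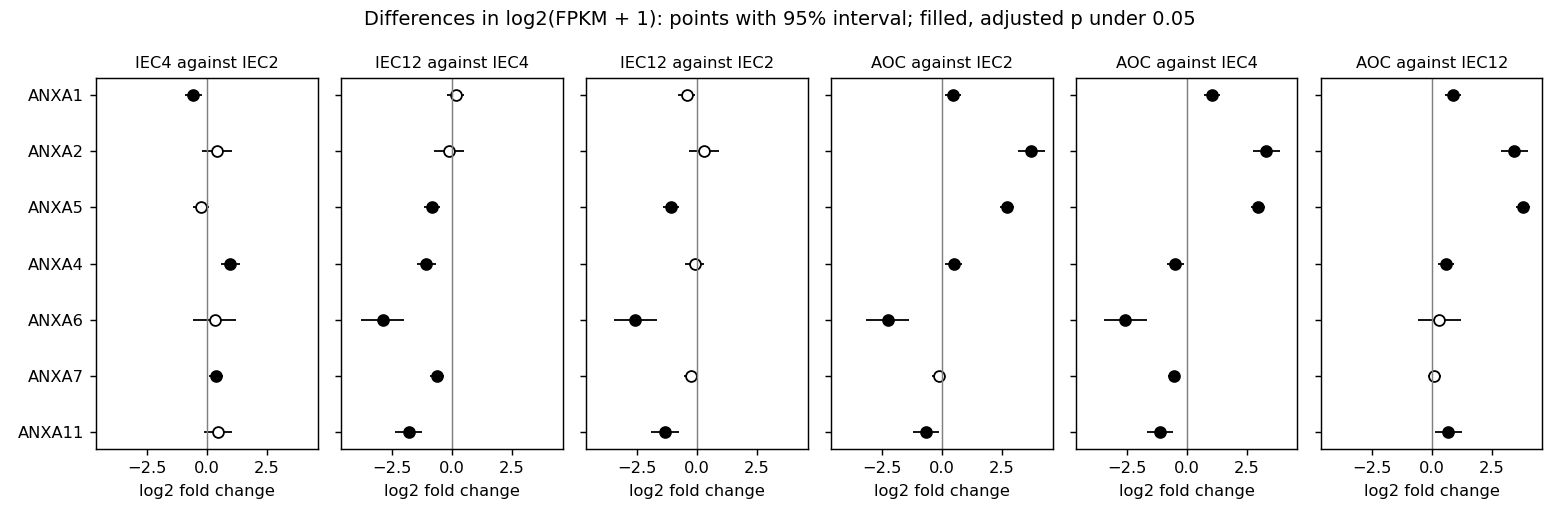
Differences in log2(FPKM + 1) (horizontal axes) of 7 annexins (rows) in 6 comparisons (panels), positive where the first-named group is higher. Bars are 95% intervals of the limma fit, and filled points have an adjusted p under 0.05. ANXA2 and ANXA5 lie between 2.70 and 3.79 in the AOC panels, and ANXA6 and ANXA11 lie left of 0 in IEC12 against both earlier stages.

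The scale of the libraries bears on the small differences. The median of all genes was not at 0, and median-of-ratios scaling moved it from 0.20 to -0.03 for IEC4 against IEC2, from -0.15 to 0.06 for IEC12 against IEC4 and from -0.45 to -0.02 for AOC against IEC4. Scaling to equal FPKM totals moved it to -0.32 for IEC12 against IEC4 and to -0.65 for AOC against IEC4. Relative to its median, the fall of ANXA7 from IEC4 to IEC12 was thus smaller than the value given above, while those of ANXA6 and ANXA11 were several times the shift. The split of calls over all genes moved with it, from 2614 higher and 1318 lower for IEC4 against IEC2 to 1801 and 1961 under median-of-ratios scaling, and from 2441 and 5198 for AOC against IEC4 to 3634 and 3533.

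Several annexins had like patterns across the libraries. Over the 12 libraries, which fall into 4 groups, Pearson's r on log2(FPKM + 1) was 0.930 for ANXA2 and ANXA5, 0.895 for ANXA6 and ANXA11, 0.849 for ANXA7 and ANXA11, and 0.794 for ANXA4 and ANXA7. It was 0.766 for ANXA1 and ANXA2 and -0.492 for ANXA2 and ANXA6. Among 9153 other genes with a symbol, the patterns most like ANXA2 were those of LGMN (r = 0.995), ANGPT2 (0.993), an angiopoietin of endothelial cells, and NWD2 (0.992). Those most like ANXA1 were PLGRKT (0.973), the plasminogen receptor with a C-terminal lysine, IFNGR1 (0.970) and GTF2E2 (0.959). The genes nearest to ANXA6 were KDELR1 (0.984), CORO1B (0.980) and INPP5B (0.980), and those nearest to ANXA11 were SLC20A2 (0.985), ZFAND2A (0.983) and AARS1 (0.982). ANXA4 had NPR3 (0.955), RAB33B (0.935) and MROH1 (0.928), and ANXA7 had FBXL22 (0.944), SLC25A23 (0.939) and MTHFD2 (0.937). These values mostly carry the means of the groups. Among the genes like ANXA2, NWD2 reached an FPKM of 1 in AOC alone, and ANGPT2 only in AOC and IEC4 replicate C. Both thus passed the filter through AOC, where ANXA2 was also highest.

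Partners of the annexin tails were examined next, the S100 proteins and other EF-hand calcium sensors. Of 11 such genes found, AOC was higher in 8 against each stage, and lower in 2 against IEC12, 3 against IEC4 and 1 against IEC2. Among all genes 22.4%, 22.1% and 26.7% were higher and 36.2%, 47.0% and 37.1% lower. S100A4, among these 11, reached an FPKM of 1 in AOC alone, so its direction was set by the filter. S100A14 reached it in IEC4 alone, so the filter also set its place among the genes lower in AOC than in IEC4. From IEC2 to IEC4, 3 of 10 tested rose and 1 fell (24.8% and 12.5% of all genes), and from IEC4 to IEC12, 3 rose and 2 fell (17.3% and 26.9%). S100A14, among these 10, reached an FPKM of 1 in IEC4 alone, so the filter set its direction in both steps.

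S100A10, which joins ANXA2 in a complex at the plasma membrane, had an FPKM of 13.6, 25.8 and 17.6 in AOC. It was 1.03 to 1.72 in the 6 IEC2 and IEC4 libraries and 3.38 to 4.09 in IEC12. S100A10 thus rose from IEC4 to IEC12, by 1.14 ± 0.174 on the log2 scale (adjusted p = 0.000895), a step in which ANXA2 did not pass the test. AOC was above IEC12 by 2.02 ± 0.211 (adjusted p = 6.4e-06) and above IEC4 by 3.16 ± 0.211 (adjusted p = 1.44e-07). Per length, S100A10 was far below ANXA2 in every library.

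S100A11, the partner of ANXA1, had an FPKM of 214, 274 and 240 in AOC, 26.8, 17.1 and 17.2 in IEC2, 37.9, 40.3 and 83.6 in IEC4, and 58.9 to 75.7 in IEC12. It rose from IEC2 to IEC4 by 1.30 ± 0.293 (adjusted p = 0.00721), the step in which ANXA1 fell, and this rise was 0.94 (adjusted p = 0.0115) without IEC4 replicate C. AOC exceeded IEC2 by 3.53 ± 0.271 (adjusted p = 3.78e-07). S100A6, a partner of ANXA11 among others, was 258, 590 and 349 in AOC and between 9.53 and 22.7 in the induced libraries apart from IEC4 replicate C at 69.2. AOC exceeded IEC12 in S100A6 by 4.18 ± 0.470 (adjusted p = 1.18e-05), while ANXA11 differed far less.

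S100A4 stood at 3.22, 22.6 and 5.75 in AOC and did not exceed 0.329 in any induced library. S100A14 was an IEC4 transcript, at 7.30, 7.86 and 17.4 there and at no more than 0.214 elsewhere. It rose from IEC2 to IEC4 by 3.47 ± 0.282 (adjusted p = 2.54e-05) and fell from IEC4 to IEC12 by 3.36 ± 0.282 (adjusted p = 3.97e-05), the same turn that ANXA4 made at a smaller size. S100A14 entered the stage fit through IEC4 alone, so the direction of both steps was set by the filter. With any IEC4 library left out it was not tested.

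The calcium sensors that bind ANXA7 and ANXA11, named after their values were seen, differed from each other. SRI (sorcin) was 699, 647 and 599 in IEC2, 372, 403 and 414 in IEC4, 487, 469 and 405 in IEC12, and 178, 176 and 202 in AOC. It fell from IEC2 to IEC4 by 0.71 ± 0.118 (adjusted p = 0.00149), where ANXA7 had its highest level, and its difference of IEC12 against IEC2 was -0.52 ± 0.118 (adjusted p = 0.00649). PDCD6 (ALG-2) was 30.5, 46.9 and 34.5 in AOC and 6.75 to 13.2 in the 9 IEC libraries, AOC being higher than IEC4 by 1.81 ± 0.196 (adjusted p = 7.2e-06), while ANXA7 and ANXA11 were lower in AOC than in IEC4.

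**Figure D4:**
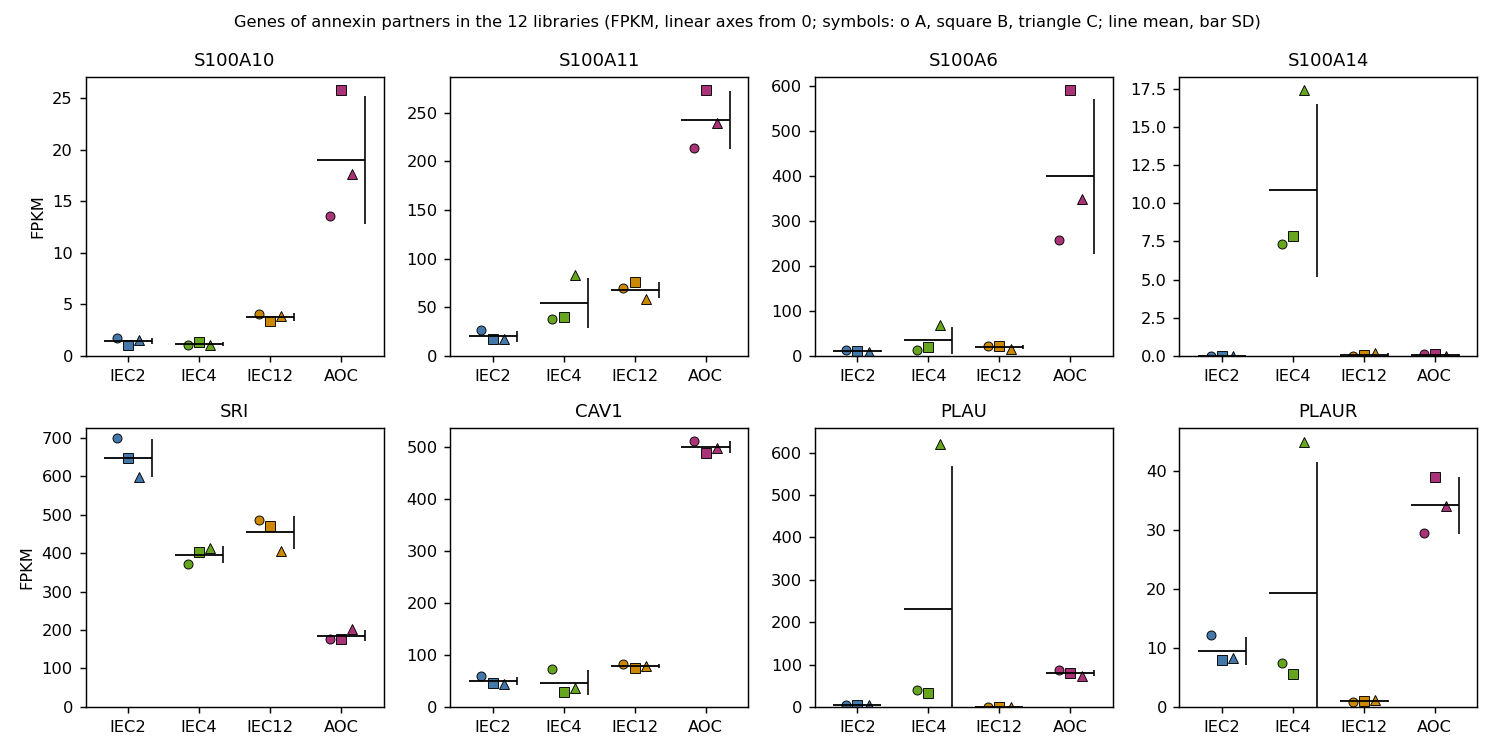
FPKM (vertical axes, linear from 0) of 8 genes of annexin partners and of the plasminogen system in the 3 libraries of each group (horizontal axes). Points are libraries, lines means and bars SD, cut at 0 where the SD exceeds the mean. S100A10, S100A11, S100A6 and CAV1 are highest in the AOC libraries, S100A14 in IEC4 and SRI in IEC2. The triangle of IEC4 (replicate C) stands above its replicates for S100A6, PLAU and PLAUR.

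The plasminogen system, which ANXA2 and S100A10 serve at the cell surface, was examined as well. Of its 6 genes found, 5 were tested. AOC was higher in 3 against IEC12, 2 against IEC4 and 3 against IEC2, and lower in 1 each time. From IEC2 to IEC4, 1 rose and 1 fell, and from IEC4 to IEC12, 4 fell and 0 rose. PLAT, another plasminogen activator, did not follow ANXA2. Its AOC libraries overlapped those of each stage, with a mean of 23.3 FPKM against 31.9 at day 2, 16.7 at day 4 and 15.1 at day 12. PLAU, the urokinase activator, was 87.0, 80.6 and 72.7 in AOC, 3.40 to 4.01 in IEC2, and no more than 0.638 in IEC12. In IEC4 it was 40.6, 33.3 and 621, replicate C being 16.8 times the mean of the others. PLAU rose from IEC2 to IEC4 by 4.35 ± 0.887 (adjusted p = 0.00419), or by 3.0 (adjusted p = 7.1e-05) without IEC4 replicate C. ANXA2 was also highest in that library among the induced ones. PLAUR, the urokinase receptor, was 29.5, 39.0 and 34.0 in AOC, and 7.39, 5.63 and 44.8 in IEC4. It fell from IEC4 to IEC12 by 2.77 ± 0.594 (adjusted p = 0.00498), to an FPKM of 0.856 to 1.13. The fall was 1.90 without IEC4 replicate C (adjusted p = 0.000732).

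ENO1, a glycolytic enzyme that also binds plasminogen, was at 633, 622 and 477 in AOC against 3822 to 4014 in IEC2, a log2 difference of -2.78 ± 0.253 (adjusted p = 1.57e-06). PLG itself, a liver product, did not exceed 0.00774.

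Of the partners of ANXA6, 5 genes were tested against AOC and 4 between stages. CAV1, a structural protein of caveolae, was 513, 490 and 499 in AOC and 28.5 to 82.7 in the induced libraries. AOC was above IEC4 by 3.52 ± 0.258 (adjusted p = 3.24e-07), where ANXA6 was lower. PRKCA, a kinase that binds ANXA6, was 0.223 to 0.285 in AOC, 4.17 to 6.82 at day 2, 1.33 to 2.06 at day 4 and 1.99 to 2.64 at day 12. Its difference of AOC against IEC2 was -2.26 ± 0.183 (adjusted p = 5.97e-07), the same direction as ANXA6. PRKCA reached an FPKM of 1 in the induced libraries alone, so the filter set this direction. Between stages PRKCA fell by 1.15 ± 0.212 from IEC2 to IEC4 (adjusted p = 0.0025), and its difference of IEC12 against IEC4 was 0.29 (95% interval -0.18 to 0.77). NPC1, the lysosomal cholesterol transporter, fell from IEC4 to IEC12 by 1.37 ± 0.351 (adjusted p = 0.0114), as did ANXA6, but stood highest in AOC at 8.67 to 12.3. CAVIN1 was at 1.31 to 2.71 in AOC and no more than 1.64 in any induced library.

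PLA2G4A, the cytosolic phospholipase whose activity ANXA1 is known to inhibit, was 27.6 to 31.7 FPKM in IEC2 and 7.74 to 9.0 in IEC4. It fell by 1.74 ± 0.173 (adjusted p = 7.28e-05). ANXA1 fell in the same step. In AOC it was 48.3, 44.4 and 39.7, the highest of the 4 groups, as ANXA1 was. The formyl peptide receptors FPR1 and FPR2 were not matched by symbol.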

How the data were processed

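RNA sequencing was done by the authors on an Illumina instrument from Smart-Seq2 cDNA, and the tables they deposited hold 1 FPKM value per Ensembl pig gene and library, scaled to transcript length and library size. Their processing notes name Bowtie2 2.2.3, TopHat2 2.0.12, Cufflinks 2.2.1 and the build susScr11. The paper names the Galaxy tool. The annotation and strand setting are not given in the sources used here.

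Groups and replicate letters were taken from the sample titles. Members and gene lists were chosen with earlier results of these data known. Symbols came from a table of gene names, and gene positions from RefSeq for Sscrofa11.1. limma 3.58.1 in R 4.3.3 (lmFit, contrasts.fit, eBayes with trend = TRUE) was fitted on log2(FPKM + 1). A gene entered a fit if 3 or more of its libraries reached an FPKM of 1. The stage comparisons used the 9 IEC libraries, and the comparisons with AOC used all 12, with p-values adjusted over all genes tested by the Benjamini-Hochberg method. The limits of the paper were counted beside an adjusted p of 0.05. The scripts were tested on simulated data. Tables were made with Python 3.11.15, pandas 2.3.3 and matplotlib 3.10.9.

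Named genes were all listed and other annexins, and for each partner list those past the limits of the paper and up to 4 whose groups did not overlap with the largest difference. PLAT was added outside this rule and was not followed under other settings. For each annexin, 3 genes with the highest Pearson's r were named. FPKM carries no count of reads, so no interval from counting error is given. The replicates are stated to be biological, and their source is not detailed further. Alternatives were 0.1 as the pseudocount, every gene kept, fits limited to the pair of groups, the replicate block, median-of-ratios scaling, equal FPKM totals, a variance not tied to expression, the limits of the paper and each library left out. The methods of the paper name no block, so letters were not used as pairs in the main fit. Deviations of same-letter libraries from their group means correlated at -0.514 to 0.247, with both signs among the comparisons. For IEC12 against IEC2 they were positive for letters A, B and C (0.247, 0.0242 and 0.204). Sequences are not used here. A gene of the plasminogen list is not reported here.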

Additional observations from a re-analysis of the deposited data

How the results depend on the processing

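Of 546 values of the annexins under other settings (42 results), 499 kept their direction and side of the threshold, 34 lost the call, 6 gained one and 7 changed sign. For the other named genes only the 83 results called in the main fit were followed, so none could gain a call. Of their 1052 values, 57 lost the call and 0 changed sign. Settings in which a gene did not enter the fit gave no value. These counts are therefore not comparable with those of the annexins, which were followed whether called or not. At the limits of the paper, the genes called were 124, 99 and 129 between stages (IEC4 against IEC2, IEC12 against IEC4, IEC12 against IEC2), from 3932, 4660 and 4592, and 487, 571 and 605 for AOC against IEC12, IEC4 and IEC2, from 6469, 7639 and 7050. The listed annexins called there were 0 in each stage comparison and 1 in each against AOC. With 1 library left out, 1 to 3 listed annexins were called for IEC4 against IEC2 and 2 to 5 for AOC against IEC2. At equal FPKM totals, 4 were called for IEC12 against IEC2. Signs changed under median-of-ratios scaling for ANXA2 in IEC12 against IEC4 (0.12), ANXA4 in AOC against IEC4 (0.035) and ANXA7 in AOC against IEC2 (0.11), and at equal totals for ANXA1 in IEC12 against IEC4 (-0.061). With 1 library left out, ANXA2 in IEC12 against IEC4 ranged from -0.32 to 0.21, ANXA4 in IEC12 against IEC2 from -0.30 to 0.0044 and ANXA6 in AOC against IEC12 from -0.25 to 0.73. The cause was not tested. The replicate block left 3900, 4569, 4496, 6303, 7505 and 6943 genes called in the same order, and ended the call of ANXA7 for IEC4 against IEC2 (adjusted p = 0.0675) and of no other listed annexin. Equal totals ended those of ANXA1 (adjusted p = 0.38) and ANXA4 (adjusted p = 0.431) for AOC against IEC2. Without the filter, ANXA11 was not called for AOC against IEC12 (adjusted p = 0.0628) or IEC2 (adjusted p = 0.0691). The number of reads is unknown, which leaves the precision of low values open to replicates alone.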

Other observations

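Other calcium-dependent membrane proteins were looked at beside the annexins. Of the 15 listed ferlins, copines, synaptotagmins, calpains and repair proteins, 14 were found, 8 were tested between stages and 10 against AOC. From IEC4 to IEC12, 6 of 8 fell and 0 rose, and from IEC2 to IEC4, 4 of 8 rose and 0 fell. Among all genes 26.9% fell and 17.3% rose in the first step, and 24.8% rose and 12.5% fell in the second. CPNE2, among these 8, reached an FPKM of 1 in no induced group but IEC4, so the filter set its direction in both steps. AOC was higher than IEC12 in 5 of 10 and lower in 2, against 22.4% and 36.2% of all genes. DYSF and CAPNS1, among these 10, reached an FPKM of 1 in AOC alone. They entered the fit only through AOC, so their direction was set by the filter. CPNE8 and SYT1, also among these 10, reached an FPKM of 1 in the induced libraries alone, so the filter set their direction too.

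MYOF (myoferlin), which works in membrane repair and trafficking, had an FPKM of 41.6 to 49.3 in IEC2 and 36.3 to 37.7 in IEC4. It was 11.7 to 14.2 in AOC and at most 7.48 in IEC12. From IEC4 to IEC12 it fell by 2.32 ± 0.131 on the log2 scale (adjusted p = 4.88e-06, limma), a step in which ANXA6 fell by 2.87. DYSF (dysferlin), an annexin-binding repair protein, was seen in AOC alone, at 4.03 to 5.53 against no more than 0.105 in the induced libraries. CPNE8, a copine, went the other way, at no more than 0.182 in AOC and 15.7 to 22.1 in the 9 IEC libraries. Its difference of AOC against IEC12 was -4.22 ± 0.135 (adjusted p = 4.03e-10), a direction that the filter set, as given above. CAPN1 (calpain-1), a calcium-dependent protease, was 6.11 to 11.7 at day 2, 20.0 to 26.9 at day 4, 2.67 to 14.1 at day 12 and 1.88 to 4.26 in AOC. Its rise from IEC2 to IEC4 (1.27, adjusted p = 0.0479) was lost whichever of these 6 libraries was left out. Its difference of IEC12 against IEC4 (-1.61, adjusted p = 0.016) was -1.05 without IEC12 replicate A and was lost without IEC4 replicate A (adjusted p = 0.0546).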
